A study of Mus musculus with 3 samples.

Results

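The contractile and actin-bundling set holds 10 genes: the smooth muscle actin Acta2, the transgelins Tagln and Tagln2, the actin crosslinker Actn1, the calponins Cnn1 and Cnn2, the tropomyosins Tpm1, Tpm2 and Tpm4, and the myosin regulatory light chain Myl9. They were picked by gene symbol from 15529 named genes, in messenger RNA profiles of 3 mouse tumour cell lines, each line being represented by 1 library. The melanoma lines are B16-F1, from skin of strain C57BL/6J, and Cloudman S91, from skin of strain DBA, whereas 4T1 is a mammary carcinoma line of strain BALB/cfC3H. The labels name no treatment. Both melanoma lines grew in DMEM and the carcinoma line in RPMI, all with 10% fetal serum. The medium, the strain and the tumour of origin of 4T1 therefore cannot be told apart.

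Actin filaments become contractile when myosin pulls on them, and they become stress fibres when crosslinkers hold them in bundles. Tropomyosin runs along the filament and sets which proteins can bind it, calponin and transgelin lie on the filament and stabilise it, alpha-actinin ties filaments together, and the regulatory light chain switches the myosin motor on when phosphorylated. Each of these families has members that are best known from smooth muscle and myofibroblasts (Acta2, Tagln, Cnn1, Tpm2, Myl9) and members used by many cell types (Tagln2, Cnn2, Tpm4, Actn1). Tpm1 makes both muscle and nonmuscle forms from 1 gene.

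The libraries held between 7412840 and 9098072 expected counts, an estimate of the reads that belong to each gene. Levels are FPKM, which is expected counts per kilobase of transcript, scaled to the library total, so they can be compared between genes. Genes missing from a library's table were taken as 0. Beside a level or a ratio, brackets or the word interval give exact 95% limits for counting error only, since there were no replicates and no test of the lines was possible. All 7 melanocyte markers reached FPKM 1 in both melanoma lines and 2 did so in 4T1. Of these 2, Tyr had 5.74 in 4T1 (5.10 to 6.42) and 4.99 in Cloudman S91 (4.36 to 5.70). These intervals overlap, and which line was higher depends on the scaling of the libraries. All 7 epithelial markers reached it in 4T1, 0 in B16-F1 and 1 in Cloudman S91. In these bulk samples, fewer cells of a type and less RNA per cell cannot be told apart.

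The set split into 5 genes that were abundant in every line and 5 that were low or unlisted in most. Tagln2, Actn1, Cnn2, Tpm1 and Tpm4 were at FPKM 10 or more in all 3 lines. Their summed FPKM was 577 in B16-F1, against 614 in Cloudman S91 and 1157 in 4T1. Acta2, Tagln, Cnn1, Tpm2 and Myl9 summed to 2.76 in B16-F1, against 51.6 in Cloudman S91 and 0.66 in 4T1. These 5 genes made up 0.476% of the FPKM of the whole set in B16-F1, against 7.75% in Cloudman S91 and 0.0570% in 4T1. 4T1 was highest for the sum of the abundant genes and lowest for the other sum.

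**Figure D1:**
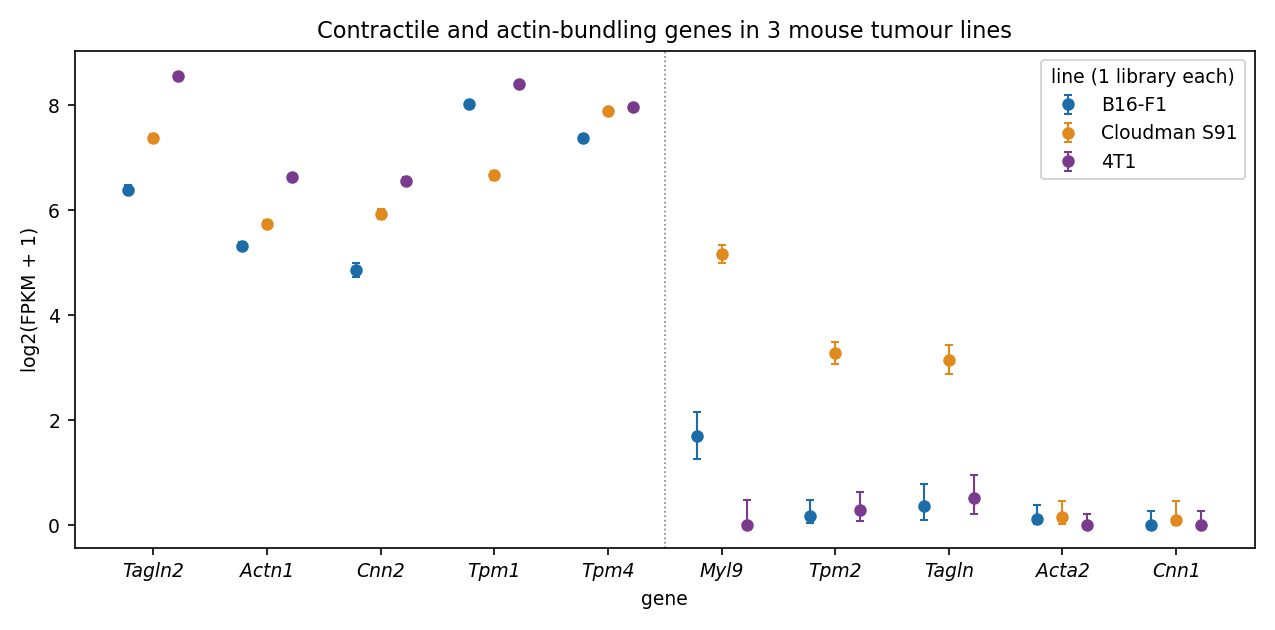
Level of each gene as log2(FPKM + 1), with 1 point per line (1 library each) and bars for the 95% counting interval. Left of the dotted line are the 5 genes at FPKM 10 or more in every line, highest in 4T1 on this scale (in TPM Tpm4 is highest in Cloudman S91, and Tpm1 is level between B16-F1 and 4T1), and on the right Myl9, Tpm2 and Tagln stand out in Cloudman S91 while Acta2 and Cnn1 lie at or near 0 in every line.

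Acta2 and Cnn1, the most widely used markers of smooth muscle and myofibroblasts, were at the bottom of the scale everywhere. Acta2 (chromosome 19, 34240336 to 34255585 in GRCm38) had FPKM 0.09 in B16-F1 and 0.11 in Cloudman S91, from 2 counts in each, and was not listed in 4T1. Cnn1 (chromosome 9, 22099221 to 22109221) had 1 count in Cloudman S91, FPKM 0.07, and was not listed in B16-F1 or 4T1. Both genes were at or under 3 counts in every library, so no fold is given for them, and the 3 lines cannot be ordered. A count of 0 allows a level of up to 0.133 for Acta2 in 4T1, and of up to 0.168 and 0.172 for Cnn1 in B16-F1 and 4T1, taking 3 counts as the limit. Actin itself was abundant: the cytoplasmic actins Actb and Actg1 had FPKM 842 and 1133 in B16-F1, against 594 and 946 in Cloudman S91 and 1049 and 703 in 4T1. Acta2 made up at most 0.0249% of actin FPKM in Cloudman S91 by the upper end of its interval, and less in the others. Acta2 shares 82.8% of its coding bases with Actb and 81.5% with Actg1, with identical runs of up to 47 and 56 bases.

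The transgelins peaked in different lines. Tagln (chromosome 9, 45929628 to 45936058), a calponin-like protein used as an early smooth muscle marker, had FPKM 0.29 in B16-F1, against 7.92 in Cloudman S91 (interval 6.37 to 9.74, 90 counts) and 0.44 in 4T1. Cloudman S91 was alone at the high end, and B16-F1 (4 counts) and 4T1 (6 counts) did not differ beyond counting error. The level in Cloudman S91 was 27.3-fold that of B16-F1 (interval 10.6 to 106) and 18-fold that of 4T1 (8.13 to 51.5). Tagln2 (chromosome 1, 172500246 to 172507375), the transgelin of many nonmuscle cells, had 83 in B16-F1, against 165 in Cloudman S91 and 378 in 4T1. Its 3 levels were apart, in the order B16-F1, Cloudman S91 and 4T1: 1.99-fold from B16-F1 to Cloudman S91 (1.84 to 2.15) and 2.29-fold from there to 4T1 (2.16 to 2.43). Tagln thus held 4.56% of transgelin FPKM in Cloudman S91, 0.346% in B16-F1 and 0.116% in 4T1, where Tagln2 made up 99.9%.

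Actn1 and Cnn2 followed the order of Tagln2. Actn1 (chromosome 12, 80167542 to 80260420), the nonmuscle alpha-actinin of stress fibres and adhesion plaques, had FPKM 39.0 in B16-F1, against 52.4 in Cloudman S91 and 98.0 in 4T1. The 4T1 level was 2.51-fold that of B16-F1 (2.35 to 2.68) and 1.87-fold that of Cloudman S91 (1.76 to 1.99). Cnn2 (chromosome 10, 79988600 to 79995400), the calponin of epithelial, fibroblast and blood cells, had 28.0 in B16-F1, against 60.1 in Cloudman S91 and 93.7 in 4T1. For Cnn2 the 4T1 level was 3.34-fold that of B16-F1 (3.01 to 3.73) and 1.56-fold that of Cloudman S91 (1.43 to 1.70). In both genes the 3 levels were separate at this depth, with B16-F1 lowest.

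Among the tropomyosins each gene had its own pattern. Tpm1 (chromosome 9, 67022590 to 67049672) had FPKM 261 in B16-F1, against 101 in Cloudman S91 and 337 in 4T1, and was the 1 abundant member lowest in Cloudman S91. The tables do not separate its splice forms. B16-F1 was 2.59-fold (2.43 to 2.77) and 4T1 was 3.34-fold (3.14 to 3.56) above it. Tpm4 (chromosome 8, 72135288 to 72153142), a short nonmuscle form, varied least among the abundant genes, with 166 in B16-F1, against 236 in Cloudman S91 and 250.2 in 4T1. Cloudman S91 and 4T1 differed 1.06-fold for Tpm4 (1.01 to 1.11), and which of them was higher depended on the scaling of the libraries: the difference of -0.08 in log2(FPKM + 1) became 0.37 in TPM, and median-of-ratios and upper-quartile scaling also turned it.

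Tpm2 (chromosome 4, 43513726 to 43523583), the beta-tropomyosin of muscle, was also highest in Cloudman S91. It had FPKM 0.13 in B16-F1, against 8.76 in Cloudman S91 (7.43 to 10.3, 154 counts) and 0.22 in 4T1. Counts in B16-F1 (3) and 4T1 (4) were too few to separate those lines. Cloudman S91 was 67.4-fold above B16-F1 (22 to 321) and 39.8-fold above 4T1 (15.5 to 151). The listed length of Tpm2 was 2499 bases in B16-F1, against 2421 in Cloudman S91 and 2108 in 4T1, and without the length the ratio of Cloudman S91 to 4T1 in scaled counts was 46.6.

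Myl9 had the widest range of the set. Myl9 (chromosome 2, 156775408 to 156781657), the regulatory light chain that is abundant in smooth muscle, had FPKM 2.25 in B16-F1 (1.39 to 3.44, 21 counts), 34.8 in Cloudman S91 (30.7 to 39.2, 265 counts) and was not listed in 4T1. The 3 lines stood in a clear order, and the range was 5.16 in log2(FPKM + 1). Cloudman S91 was 15.5-fold above B16-F1 (9.91 to 25.4) and at least 110-fold above 4T1, taking 3 counts in 4T1. B16-F1 was at least 7.14-fold above 4T1 on the same basis. Both bounds take the missing Myl9 row of 4T1 as a count of 0, which the tables do not state. The closely related light chains Myl12a and Myl12b, which do the same work in nonmuscle cells, were present in all lines, at 152 and 99.9 in B16-F1, against 163 and 77.6 in Cloudman S91 and 594 and 147 in 4T1. Their mouse coding sequences are 85.7% and 86.4% identical to that of Myl9, with no identical run longer than 35 bases. Myl12a and Myl12b are 96.5% identical to each other and had counts that were not whole numbers, so the split between these last genes is uncertain, whereas all 26 listed counts of the 10 genes were whole to within 0.005.

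The CArG box is the binding motif of serum response factor (SRF), the factor best known for driving smooth muscle genes. Only its exact form was searched: CC, a run of A and T letters alone, then GG. Boxes with a changed letter were not searched, so a member without a match may still hold one. Myl9 and Cnn2, whose upstream regions are shown, were the only members with an exact match in the 250 bases before the start. Of the members, 9 were matched in the RefSeq promoter table and Tagln was not. The sequences are from RefSeq GRCm38.p6 on the plus strand, chr2:156775214-156775407 for Myl9 and chr10:79988350-79988583 for Cnn2, and stop before the first annotated transcript. Capitals mark the CArG box.
Myl9: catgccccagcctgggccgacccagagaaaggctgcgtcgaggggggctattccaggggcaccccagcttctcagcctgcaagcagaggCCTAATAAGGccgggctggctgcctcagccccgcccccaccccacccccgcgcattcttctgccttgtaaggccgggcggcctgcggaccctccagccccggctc
Cnn2: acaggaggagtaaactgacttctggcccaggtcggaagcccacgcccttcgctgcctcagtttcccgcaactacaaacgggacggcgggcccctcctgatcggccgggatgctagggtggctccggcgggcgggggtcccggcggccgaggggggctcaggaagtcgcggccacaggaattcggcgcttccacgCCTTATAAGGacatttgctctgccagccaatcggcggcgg
The motif was searched on both strands, which are equivalent for it, and it stood in 1.47% of 32851 promoters. The box begins 105 bases before the annotated gene start given above in Myl9 and 56 bases before it in Cnn2. From Cloudman S91 to 4T1 the level was lower for Myl9 and higher for Cnn2. Tpm2 had no match in its window. Of 12 relatives with a promoter, Acta1, Actc1, Myl7 and Actg1 held the motif, and only Actg1 of these was abundant in any line. CATTCC, the motif of TEAD factors, or its complement GGAATG stood before Tagln2, Tpm1 and Acta2, and in 12.6% of all promoters. A match is a description of the letters, not of binding.

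Between the lines, genes were called by size alone. A call needed FPKM 1 or above in either line of the pair and log2(FPKM + 1) values 2 or more apart, which is 4-fold on that scale. The scale understates the folds of low genes. In B16-F1 against Cloudman S91, 3 members (Tagln, Tpm2 and Myl9) were higher in Cloudman S91, by 2.79, 3.11 and 3.46, against 3.19% of 11133 genes called in that direction, and 0 were higher in B16-F1 (2.33% of genes, with 5.52% called in either direction). For Cloudman S91 against 4T1 the same 3 genes were higher in Cloudman S91, by 2.63, 3.0 and 5.16, against 7.47% of 11657 genes, and 0 were higher in 4T1 (8.01%, with 15.5% in either direction). These comparisons share the Cloudman S91 library. Tagln and Tpm2 reached FPKM 1 only through that library in both, and Myl9 did so against 4T1. In those cases a call could only be higher in Cloudman S91, so the counts describe the genes without supporting a difference. In B16-F1 against 4T1 only Tagln2 passed, higher in 4T1 by 2.17, against 7.43% of 11547 genes, and 0 were higher in B16-F1 (6.31%, with 13.7% in either direction).

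The median difference of the measured members was -1.03 for B16-F1 minus Cloudman S91 (8 genes), -0.95 for B16-F1 minus 4T1 (6 genes) and -0.36 for Cloudman S91 minus 4T1 (8 genes). Over all genes tested it was 0.14, 0.03 and -0.14. Tagln and Tpm2, and against 4T1 also Myl9, reached FPKM 1 only through Cloudman S91, so they had to differ once measured. These medians describe the genes without supporting a difference. Rescaling to TPM moved the median of all genes by -0.07, 0.35 and 0.42 in the same order, and turned the members' median for Cloudman S91 minus 4T1 to 0.09. In TPM the calls in Cloudman S91 stood, but the difference of Tagln2 between B16-F1 and 4T1 was -1.81, under the size rule, and that of Tpm1 was 0.00. In B16-F1 against 4T1, 45.9% of all calls were higher in B16-F1 as deposited and 56.7% in TPM. The calls higher in Cloudman S91 than in 4T1 were 48.3% as deposited and 59.9% in TPM.

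**Figure D2:**
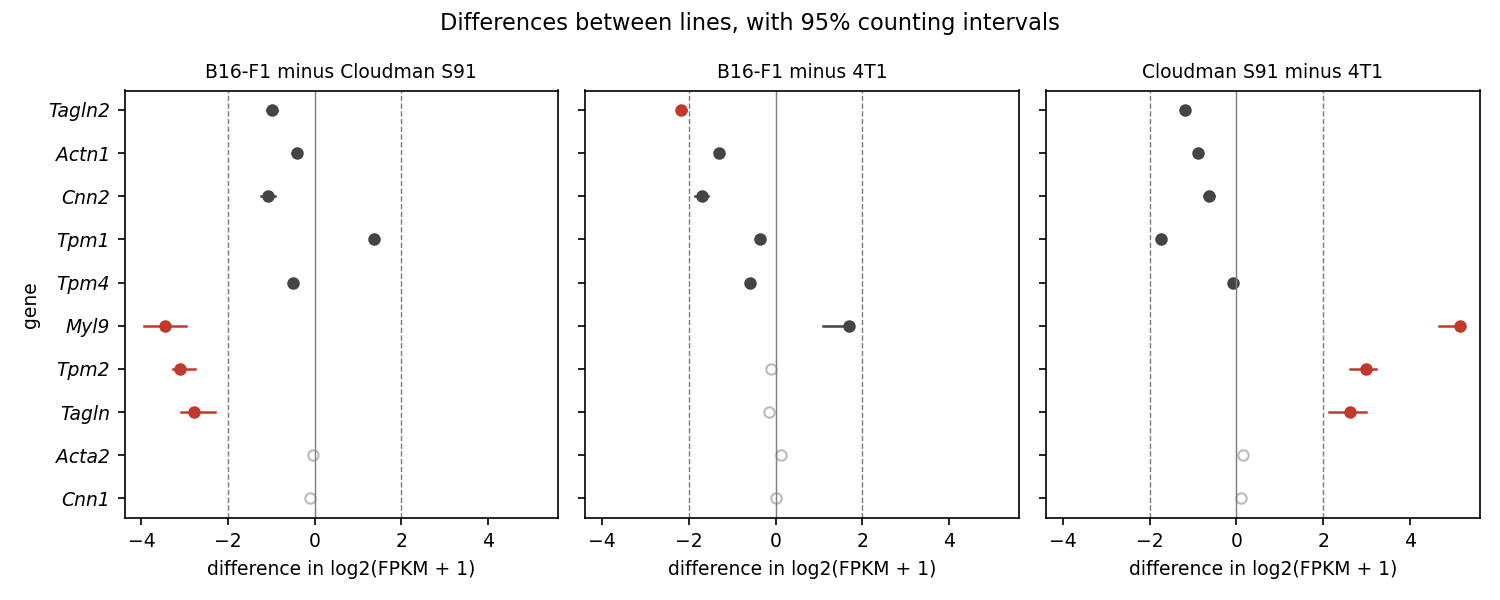
Difference in log2(FPKM + 1) for each gene in the 3 pairs of lines, with 95% counting intervals and dashed lines at 2 and -2. Red points passed the size rule, dark points did not, and open grey points were under FPKM 1 in both lines; Myl9, Tpm2 and Tagln are past the line towards Cloudman S91 in both pairs that hold it, and Tagln2 alone is past it in B16-F1 minus 4T1.

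**Figure D3:**
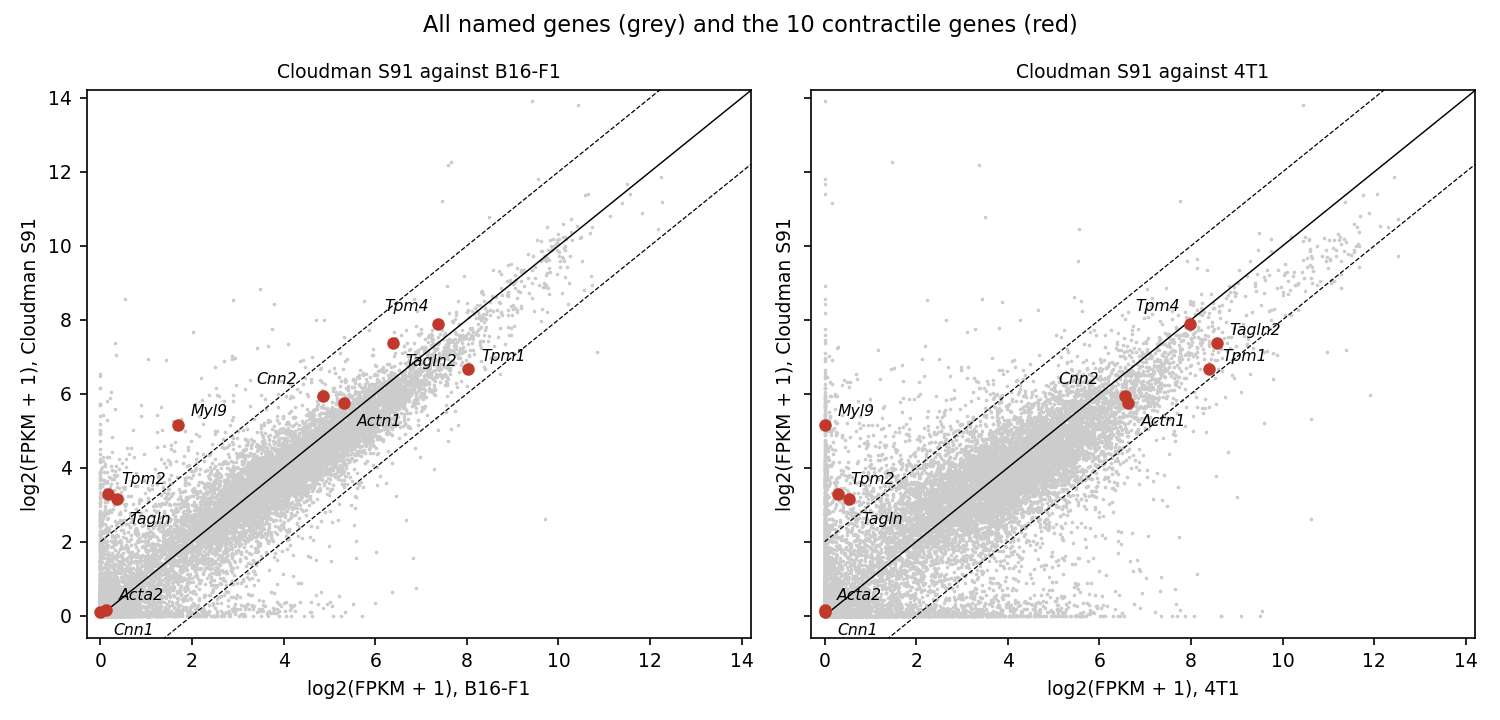
All named genes in log2(FPKM + 1), Cloudman S91 on the vertical axis against B16-F1 (left) and 4T1 (right), with the 10 members in red, the line of equality solid and the 4-fold lines dashed. Myl9, Tpm2 and Tagln lie above the upper dashed line in both panels, and the 5 abundant members lie inside the dashed lines.

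Within the calponin and alpha-actinin families, the same gene (Cnn3 or Actn4) held the largest share in all 3 lines, for Actn4 in 4T1 only within counting error. The size of the shares differed. Calponin FPKM as deposited summed to 193 in B16-F1, against 226 in Cloudman S91 and 216 in 4T1. The FPKM of all rows summed to 466033, 439437 and 601329 in the same order, so family sums between lines depend on the scaling. The share of Cnn2 was 14.5% (13.3 to 15.8), 26.6% (25.0 to 28.2) and 43.5% (41.8 to 45.1). The rest was Cnn3, the acidic calponin, at 165, 166 and 122. Alpha-actinin was similar, with sums of 207, 181 and 200.2 and an Actn1 share of 18.8% (17.9 to 19.8), 28.9% (27.6 to 30.1) and 48.9% (47.7 to 50.1). Actn4, the other nonmuscle alpha-actinin, ran the other way, at 168, 127 and 102. In 4T1 its share was 51.0% (49.8 to 52.2), an interval that overlapped that of Actn1. In both families the share of the member was lowest in B16-F1 and highest in 4T1, with intervals that did not overlap.

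For regulatory light chains and tropomyosins the sums as deposited, which also depend on the scaling, differed between lines. Light chain FPKM (Myl9, Myl12a and Myl12b) summed to 255 in B16-F1, against 275 in Cloudman S91 and 741 in 4T1. Myl9 held 0.884% of it in B16-F1 (0.548 to 1.35) and 12.6% in Cloudman S91 (11.3 to 14.1), and in 4T1, if the missing row is a count of 0, at most 0.0523% by the same interval. Tropomyosin FPKM summed to 689, 459 and 669. Tpm1 held 37.9% in B16-F1, against 21.9% in Cloudman S91 and 50.3% in 4T1, and Tpm4 held 24.0%, 51.4% and 37.4%. In 4T1 an assembled gene with no symbol, described as tropomyosin 3, had FPKM 213 beside the 81.9 of Tpm3. Counted as Tpm3, it brought the sum in 4T1 to 882, above that of B16-F1 in deposited FPKM. The Tpm3 share in 4T1 went from 12.2% to 33.5%, that of Tpm1 to 38.2% and that of Tpm4 to 28.4%. No row without a symbol was described as a calponin, a transgelin or an actinin in any table.

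**Figure D4:**
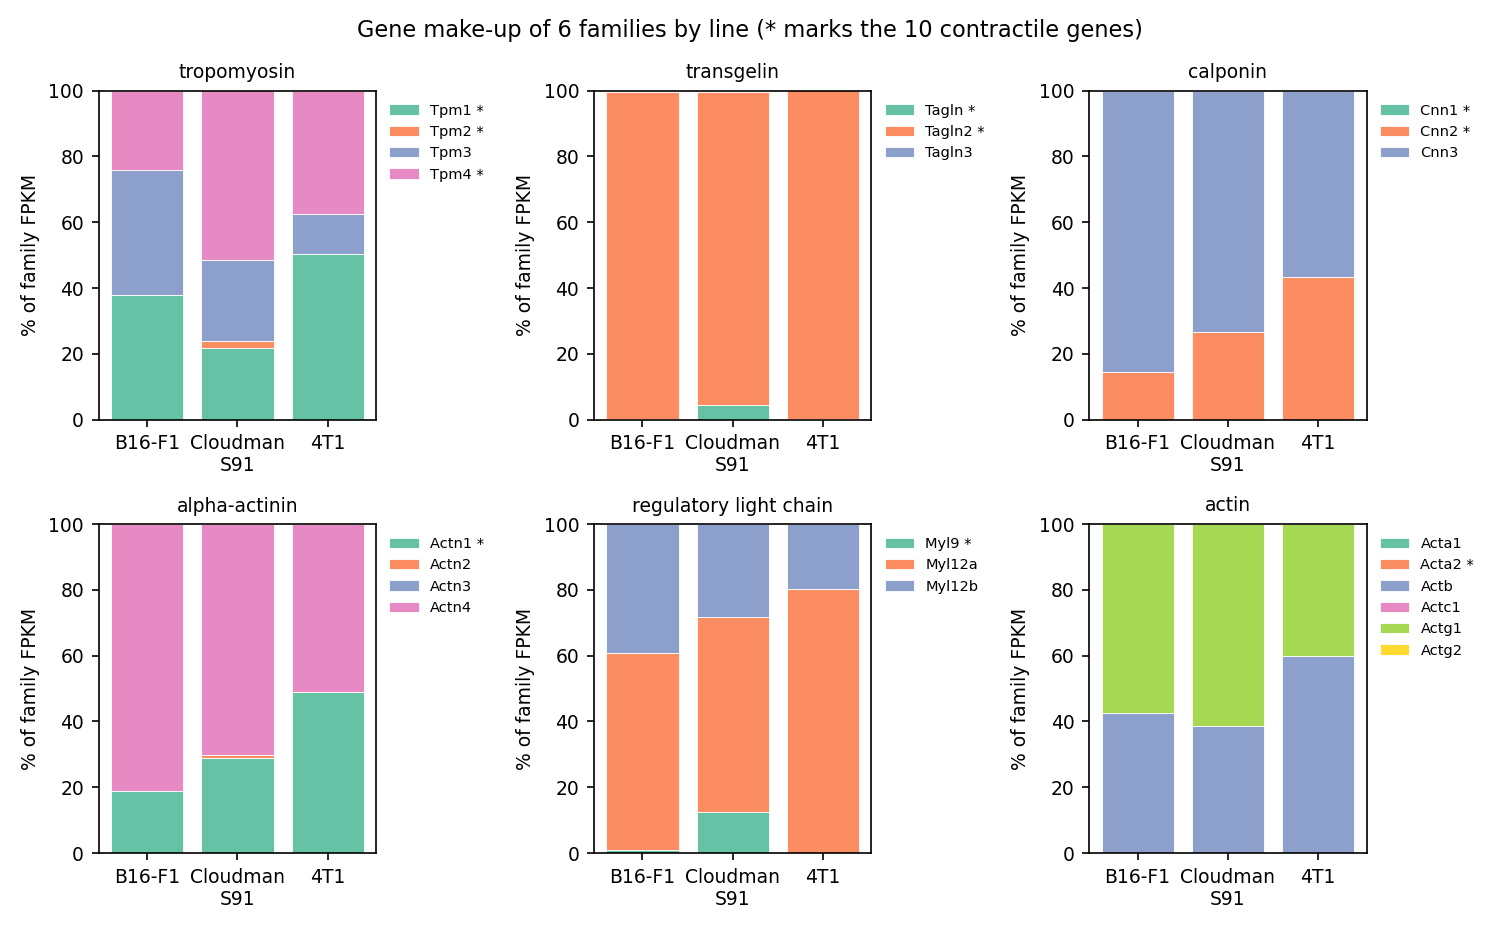
Share of each family's summed FPKM (%) carried by each gene with a symbol, by line, with asterisks on the genes of the set. Cnn2 and Actn1 take a growing share from B16-F1 to 4T1, Myl9 and Tagln are visible in Cloudman S91, and Acta2 cannot be seen in any bar.

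The wider contractile machinery was read from lists of related genes. None of the family relatives measured (10, 8 and 10 in the 3 pairs, of 14 in a table) passed the size rule in any pair. Over all genes, 5.52%, 13.7% and 15.5% passed in the same pairs, so 0 calls among so few genes say little. In the list of myosin motors and their control, 20 genes were in a table. Of the 16 measured in B16-F1 against Cloudman S91, 1 was higher in B16-F1 (Cdc42bpa, against 2.33% of all genes). In Cloudman S91, 1 was higher (Rock2, against 3.19%). Rock2, a kinase that phosphorylates and so activates myosin, had FPKM 28.3 in B16-F1, against 256 in Cloudman S91 and 18.4 in 4T1. Cdc42bpa, a kinase of the same pathway, had 9.98, 0.13 and 15.5 in the same order. Myh10, the heavy chain of nonmuscle myosin IIB, was at 0.40 in both melanoma lines and 21.5 in 4T1. Myh9, nonmuscle myosin IIA, was abundant in all 3 lines, at 117, 140 and 103, and the smooth muscle heavy chain Myh11 had 3 counts or fewer in each library. Between Cloudman S91 and 4T1, 19 genes of this list were measured. Of these, 3 were higher in Cloudman S91 (Rock2, Ppp1cb and Ppp1r12a, against 7.47% of all genes). In 4T1, 4 were higher (Cdc42bpa, Myh10, Ppp1r12b and Rhoc, against 8.01%). The median was -0.30 (all genes -0.14). Like Rock2, Ppp1cb (75.6, 112 and 21.2) and Ppp1r12a (26.4, 61.15 and 13.55) were highest in Cloudman S91. Some rows with no symbol shared the orthology number of Ppp1cb, an identifier of a protein group. Counted as Ppp1cb, they brought it to 118, 126 and 27.2, with the melanoma lines closer together. Whether they belong to Ppp1cb was not tested.

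Of 15 other bundling and crosslinking proteins measured in B16-F1 against 4T1, 4 were higher in B16-F1 (6.31% of all genes) and 5 in 4T1 (7.43%), with a median of -0.58. Fscn1, which packs filaments into the tight bundles of filopodia, had FPKM 32.9 in B16-F1, against 70.1 in Cloudman S91 and 162 in 4T1, the order of Tagln2, Actn1 and Cnn2. Lcp1, the plastin of blood cells, had 1.85, 0.04 and 24.7, and Palld, an alpha-actinin partner in stress fibres, had 1.45, 0.06 and 16.4. On the side of the melanoma lines were Synpo, another alpha-actinin partner (22.1, 14.4 and 1.56), and Lima1, a filament crosslinker (75, 70.6 and 9.56). Eps8, which caps and bundles filaments, was highest in B16-F1 (214, 45.8 and 34.9).

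Proteins that sit with the members on thin filaments and adhesion plaques went both ways. Pdlim1, a scaffold that binds alpha-actinin, had FPKM 39.3 in B16-F1, against 78.9 in Cloudman S91 and 0.46 in 4T1, and Csrp1, a LIM protein that binds alpha-actinin, had 276, 302 and 47.8. Fhl2, a LIM protein of muscle and epithelium, went the other way, with 0.16, 0.20 and 44.3. Smtn, a protein of stress fibres and contractile smooth muscle, had 19.1, 11.1 and 79.0. Of 12 thin filament partners measured in B16-F1 against 4T1, 2 were higher in B16-F1 (6.31% of all genes) and 1 in 4T1 (7.43%), with a median of -0.16. Of 11 measured in Cloudman S91 against 4T1, 2 were higher in the former (7.47% of all genes) and 3 in the latter (8.01%), with a median of -0.85. Among adhesion plaque partners Parvb was lowest in 4T1 (66.3, 44.5 and 5.08) and Tns3 highest there (21.6, 16.9 and 116), the 2 that passed among 14 measured in B16-F1 against 4T1 (median -0.02), a share close to the 13.7% of all genes.

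Of 23 genes that assemble and turn over filaments, 4 passed in B16-F1 against 4T1 (13.7% of all genes) and 3 in B16-F1 against Cloudman S91 (5.52%). The medians were 0.34 and 0.35. Tmsb4x, which holds actin monomers in reserve, had FPKM 12.9 in B16-F1, against 346 in Cloudman S91 and 253 in 4T1. Enah and Evl, which elongate filaments at the cell edge, were highest in B16-F1, at 17.4, 0.19 and 2.99 for Enah and at 14.5 and 0.19 for Evl, which was not listed in 4T1. Capg, a capping protein, had 29.7, 30.7 and 263.

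Of the regulators of smooth muscle genes, Myocd, the muscle-restricted cofactor of SRF, was in none of the tables. Srf, the factor that binds the CArG box, had FPKM 14.5 in B16-F1, against 14.8 in Cloudman S91 and 18.7 in 4T1. Its actin-sensing cofactor Mkl1, now called Mrtfa, had 12.8, 17.5 and 14.3, and Mkl2 had 11.7, 12.5 and 4.94. Of 15 symbols for SRF and TEAD regulators, 12 were in a table and all of these were measured. Of the 12, 0 passed in B16-F1 against Cloudman S91 (5.52% of all genes), with a median of -0.15. Elk4, an ETS partner of SRF, was the 1 that passed in either comparison with 4T1 (13.7% and 15.5% of all genes), at 10.8, 14.8 and 1.02. Yap1, a coactivator of TEAD factors, had 55.3, 39.0 and 36.3.

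Markers of cell types that use contractile genes were mostly low. Of 11 smooth muscle and pericyte markers in a table, 2 reached FPKM 1 in B16-F1, against 6 in Cloudman S91 and 2 in 4T1. Beside Mcam, which melanoma lines share (115, 121 and 3.39), and Smtn, those in Cloudman S91 were the intermediate filament gene Des (3.58, against 0.77 in B16-F1 and none listed in 4T1), the proteoglycan Cspg4 (4.53, against 0.52 and 0.13), the receptor Pdgfrb (2.04, against 0.25 and none listed) and the smooth muscle gamma-actin Actg2 (1.26, against 0.09 and none listed). These 4 genes were highest in Cloudman S91, and Smtn was lowest there (11.1). Against B16-F1, 0 of the 6 measured markers of the list passed the size rule (5.52% of all genes). Between Cloudman S91 and 4T1, 6 were also measured. Of these, 3 were higher in Cloudman S91 (Cspg4, Des and Mcam, against 7.47% of all genes) and 1 in 4T1 (Smtn, against 8.01%). Cspg4 and Des reached FPKM 1 only through Cloudman S91, so they could only be called higher there. The defining genes Myh11 and Rgs5 were not listed in Cloudman S91. The summed FPKM of this list was 137, 145 and 82.6.

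Of 9 fibroblast markers in a table, 2 reached FPKM 1 in B16-F1, against 3 in Cloudman S91 and 1 in 4T1, with sums of 4.96, 21.0 and 9.85. Pdgfra, a growth factor receptor of mesenchymal cells, accounted for 15.6 of the sum in Cloudman S91 (0.17 in B16-F1 and 0.96 in 4T1), where the matrix genes Col3a1, Col1a2, Col1a1, Lum and Dcn were at 1.81, 1.59, 0.91, 0.27 and 0.08. Col3a1 was 2.66-fold lower in B16-F1 (0.68, interval of the ratio 1.75 to 4.12) and not listed in 4T1. Of 10 myoepithelial and basal markers 1, 1 and 2 reached FPKM 1. In 4T1 these were Krt14 (20.7) and Krt17 (1.62), while Krt5, Trp63, Oxtr, Cnn1 and Acta2 were not listed there. The part of other cells in the Tagln, Tpm2 and Myl9 levels was not tested.

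**Figure D5:**
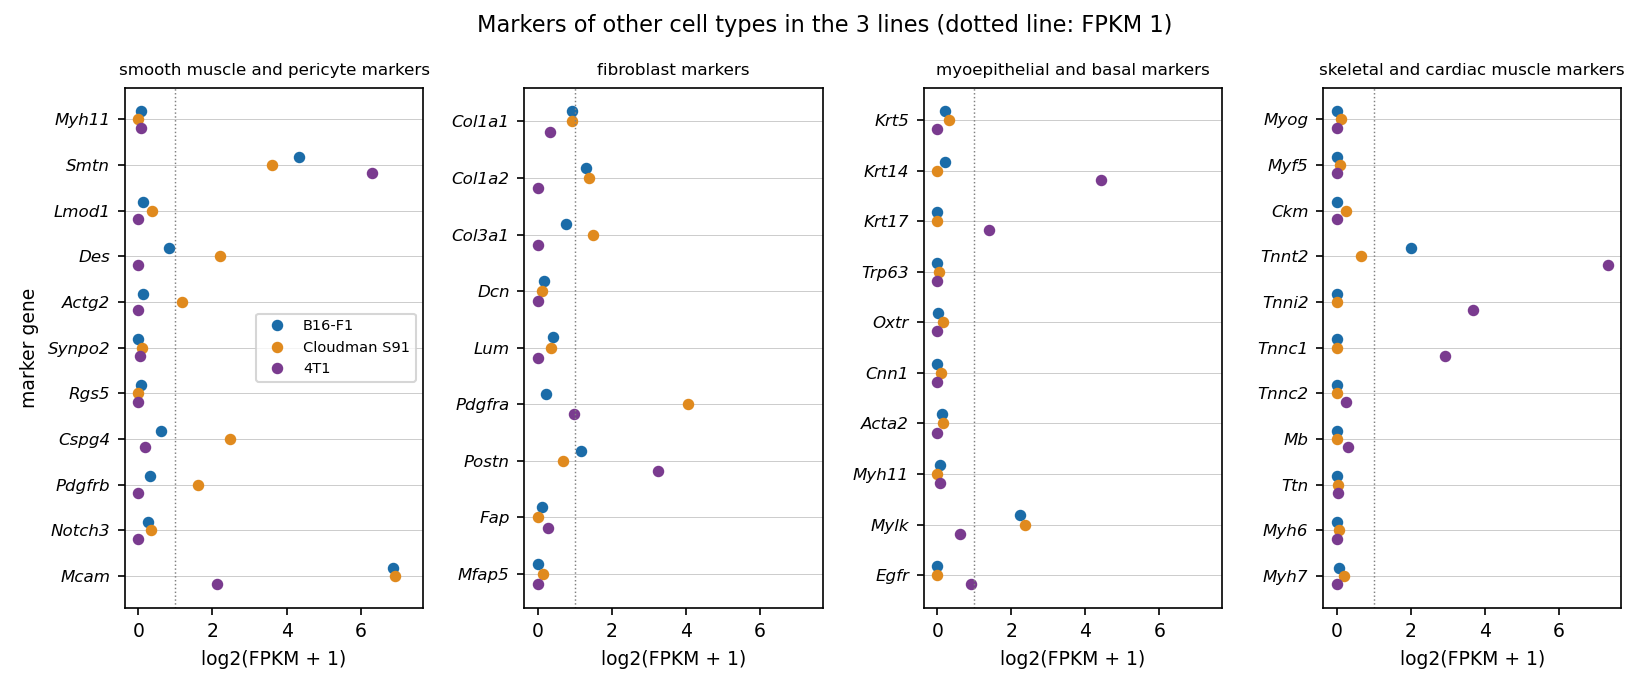
Levels, as log2(FPKM + 1), of markers of 4 cell types that use contractile genes, with 1 point per line and a dotted line at FPKM 1. Most markers lie left of the line. Pdgfra, Cspg4 and Des are highest in Cloudman S91, and Tnnt2, Tnni2, Tnnc1, Krt14, Smtn and Postn are highest in 4T1.

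The genes whose levels over the 3 lines lay nearest to those of Myl9 and Tpm2, the members with the widest ranges, were found by Euclidean distance in log2(FPKM + 1) among 7756 genes that reached FPKM 10 in any line. For Myl9 they were Megf10 (distance 0.18, FPKM 2.07, 31.9 and 0.07), Fkbp10 (0.52) and Kit (0.54). For Tpm2 they were Efemp1 (0.39, FPKM 10.2 in Cloudman S91 and 0 in the others), Lifr (0.39) and Fam3b (0.40). Tpm2 itself peaked at 8.76, under that limit, so genes that peaked at its own level were not searched and may lie nearer. The distances rest on 3 libraries.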

How the data were processed

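Polyadenylated RNA of 3 mouse cell lines was sequenced, 1 library per line, per the labels' protocols. HISAT, StringTie and the build mm10 are named in the submitters' processing notes, without versions. For the counting of reads, the program was not given in the sources used here. Expected counts deposited by the authors are estimated reads per gene, not normalised, and the FPKM deposited by the authors divide them by the listed length and a total that came to 0.980 to 0.987 of the summed counts. Totals were 9098072, 7412840 and 8968897 expected counts for B16-F1, Cloudman S91 and 4T1. Rows with no symbol, 2.36%, 2.24% and 4.32% of counts, were left out.

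With 1 library per line no test was made. Genes were called at a difference of 2 in log2(FPKM + 1), with FPKM 1 or more in at least 1 line compared. A log2 scale was computed from the deposited FPKM with a pseudocount of 1. Intervals are exact Poisson for a level, conditional binomial for a ratio, and binomial scaled to FPKM for a share, all from counts rounded to whole numbers. All of these describe counting error alone. They treat reads as independent, so they are too narrow where reads are PCR copies of the same molecule. Where a gene was unlisted, folds use 3 counts there. Rules were checked on simulated counts. Positions (all 10 members, matched by Entrez number) and promoters (9 members) are from RefSeq GRCm38.p6. Coding identity used GENCODE M21. From the lists of related genes, genes were named for a large range over the lines or a high level, but not all such genes were named. Left out were, among others, Myl6, Cfl1, Tmsb10, Pfn1, Flna, Fermt2, Ilk and Elk3, each the highest of its list in at least 1 line. Srf, Mkl1, Mkl2, Myocd, Tyr, Col3a1, Myh9, Myh11 and the defining cell type markers were added after their values were seen. Members and lists were chosen with earlier results of these data known. Python 3.11.15, scipy 1.17.1, pandas 2.3.3 and biopython 1.88 were used.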

Additional observations from a re-analysis of the deposited data

How the results depend on the processing

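No paired analysis was possible because each line has 1 library. Over 22 differences of measured members and 10 alternatives that keep the 4-fold rule, 0 called differences changed sign. Of 220 values, 138 stayed within the counting interval of the value reported and 82 did not. The 138 include values that could not move, since dropping the FPKM filter or raising it to 5 leaves each difference as it was. Adding rows with no symbol also moved none of the members. A row was added only to a gene that alone held its orthology number. Cnn1, Cnn2 and Tpm1 had no single number, and Tagln and Tagln2 shared theirs, so these genes could not move. Myl9 was past 4-fold in both pairs with Cloudman S91 under all 10 alternatives. Tagln and Tpm2 fell short under a pseudocount of 5 alone, which left 1 member called in each pair with Cloudman S91. Between B16-F1 and 4T1, Tagln2 fell short in TPM, also when the 50 most abundant genes were left out, and Myl9 passed there and under a pseudocount of 0.1, which gave 2 members. With a 2-fold rule 5, 4 and 5 members passed in B16-F1 against Cloudman S91, B16-F1 against 4T1 and Cloudman S91 against 4T1. With an 8-fold rule 0 passed in B16-F1 against 4T1. Over all genes, 614, 1587 and 1805 passed in that order; a pseudocount of 0.1 gave 1204, 2538 and 2780, a pseudocount of 5 gave 173, 701 and 727, the 2-fold rule gave 2223, 4320 and 4730, and the 8-fold rule gave 255, 807 and 881. B16-F1 against Cloudman S91 had 1036 in TPM without the 50 most abundant genes and 966 in expected counts without length. Depth limits Acta2 and Cnn1, at 2 counts or fewer in every library, whose levels cannot be ordered.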

Other observations

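Striated muscle genes of the thin filament stood out in 4T1. Tnnt2, the cardiac form of troponin T, had FPKM 159 in 4T1, against 3.05 in B16-F1 and 0.59 in Cloudman S91, a ratio of 52.3 (interval 37.3 to 75.7) to B16-F1 and of 270 (119 to 857) to Cloudman S91. Tnni2, a fast skeletal troponin I, had 11.9 in 4T1, and Tnnc1, the slow and cardiac troponin C, had 6.64. Neither was listed in the melanoma lines, so Tnni2 was at least 23.7-fold and Tnnc1 at least 15.7-fold above B16-F1. Of the 11 striated muscle markers in a table these 3 reached FPKM 1 in 4T1. The myogenic factors Myog and Myf5 and the muscle creatine kinase Ckm were not listed there, and Ttn, the giant spring protein of the sarcomere, had 0.03. The muscle actins Acta1 and Actc1 were at 0.08 in 4T1 and not listed there, respectively.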
